A study of Mus musculus with 20 samples.

Results

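Cold exposure was examined here in mice that lack Sirt2, through 10 liver libraries of the 20 in the series. The 5 Sirt2-/-/CE libraries (replicates 16 to 20) were compared with the 5 Sirt2-/- libraries kept at room temperature (replicates 11 to 15), each labelled as a separate sample of liver. All mice of the 4 groups were on the C57BL/6 background and 5 weeks of age at the start, and were housed at 24 °C. The Sirt2-/-/CE mice were moved to 4 °C for 3 h per day over 3 weeks, as were the CE mice of the wild type. The knockout was made with CRISPR-Cas9 in the whole animal, with no restriction to liver, and was aimed at exons 5 to 7 of Sirt2. Both groups of this comparison carry it, so the comparison shows cold exposure on a Sirt2-deficient background. The sex of the mice is not named in the labels. Xist RNA stayed at or below 0.411 CPM (counts scaled to the size of the library) in these 10 libraries, while the Y-linked transcript Ddx3y had 23.8 to 72.4 CPM.

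Cold raises the demand for heat and fuel, and the liver answers by exporting glucose, ketone bodies and lipoproteins and by adjusting lipid and cholesterol synthesis. Sirt2 is a deacetylase that uses NAD+ and is known to act on metabolic enzymes. The liver also carries detoxifying enzymes, among them the glutathione S-transferases, which join glutathione to reactive compounds, and the cytochromes P450.

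Sirt2 RNA was lower in the knockout but was not absent. In the Sirt2-/- libraries it had 17.3, 21.3, 26.6, 27.5 and 16.9 CPM, and in the Sirt2-/-/CE libraries 27.5, 19.4, 20.8, 19 and 21.1 CPM. The mean was 42.3 ± 1.3 CPM (SD, n = 5) in Control and 46.6 ± 6.08 CPM (SD, n = 5) in CE. Counts over the whole gene cannot show whether the targeted exons were transcribed. Cold exposure in the knockout came with a log2 fold change of -0.03 for Sirt2 (95% interval -0.33 to 0.28), smaller than the spread between libraries.

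Total counts were 36004846 to 42142304 in Sirt2-/- and 39085263 to 44030198 in Sirt2-/-/CE. Summed hepatocyte markers made up 89000 to 137000 CPM in Sirt2-/- and 100000 to 166000 CPM in Sirt2-/-/CE. Markers of skeletal muscle summed to at most 1.11 CPM, of adipocytes to at most 0.186 CPM and of exocrine pancreas to at most 8.93 CPM. Summed Kupffer cell markers had 188 to 323 CPM in Sirt2-/- and 234 to 330 CPM in Sirt2-/-/CE. Endothelial markers had 86.5 to 254 and 152 to 272 CPM, stellate cell and fibroblast markers 86.2 to 266 and 153 to 221 CPM, and erythroid markers 145 to 531 and 223 to 778 CPM. Cholangiocyte markers (30.2 to 44.2 and 21.5 to 38.4 CPM) and other leukocyte markers (9.67 to 14.2 and 7.15 to 14.8 CPM) were low in both groups. The groups overlapped in each of these sums. In bulk tissue, fewer cells of a type and less RNA per cell cannot be told apart.

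In each group, 2 libraries stood apart from the rest. Over log2 CPM, Sirt2-/- replicates 14 and 15 and Sirt2-/-/CE replicates 16 and 20 had median correlations of 0.933, 0.947, 0.934 and 0.944 with the other 9 knockout libraries, against 0.959 to 0.964 for the remaining 6. Mitochondrially encoded genes took 5.52% of the counts in replicate 14 and 5.62% in replicate 16, and up to 9.83% elsewhere. Short genes were also relatively high in replicates 14 and 16: the quartile of genes with the fewest exon bases exceeded the quartile with the most by 0.51 and 0.85 on the log2 scale, as a mean over genes centred on the 10 libraries. This difference was 0.27 in replicate 20 and -0.39 to -0.14 in the other 7. Most results are therefore given also without these 4 libraries, a choice made after seeing the data.

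Across 15616 genes tested with edgeR, cold exposure in the knockout changed 0 genes (0.0%) at the adjusted threshold of 0.05. The lowest adjusted p was 0.473. At an unadjusted p under 0.05, 619 genes were higher in Sirt2-/-/CE (3.96% of those tested) and 513 were lower (3.29%). Scaled by library size alone, 417 genes were higher and 817 lower, so that 33.8% of these genes were higher in place of 54.7%, with a median log2 fold change of -0.064. DESeq2 called 7 genes, 4 higher and 3 lower. They were Gstm6, Gstm2, Dbi and Gm27029 (higher) and Cacnb4, Neat1 and 3830406C13Rik (lower). The median log2 fold change of all genes was 0.006. The 95% interval of a log2 fold change reached 0.56 to either side for the median gene, and 0.38 for the median of the 4012 genes with at least 10 FPKM. Without replicates 14, 15, 16 and 20, 415 genes had an unadjusted p under 0.05 in place of 1132. Of the 1132 genes, 1013 kept their direction in that fit and 131 were again under 0.05. Below, "at p under 0.05" refers to the unadjusted p of edgeR's quasi-likelihood test, and no gene named passed that test after adjustment for Sirt2-/-/CE against Sirt2-/- with all libraries.

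The genes with the smallest p included several glutathione S-transferases. Gstm2 and Gstm6 are neighbours of the mu class on the reverse strand of chromosome 3 (GRCm38), at 107981702 to 107986453 and 107938847 to 107943749. The 150 bases upstream of their RefSeq starts, and those of the alpha-class gene Gsta3, are shown because these genes stood higher in Sirt2-/-/CE. Those of Pmvk and Ebp, from the cholesterol synthesis list described further on, are shown beside them. Capitals mark the CCAAT box (CCAAT on either strand) and, in Gsta3, the antioxidant response core TGACNNNGC.
Gstm2, chr3:107986421-107986570, reverse strand: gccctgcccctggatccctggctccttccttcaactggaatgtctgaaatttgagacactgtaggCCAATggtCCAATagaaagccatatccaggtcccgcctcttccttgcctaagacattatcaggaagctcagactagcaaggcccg
Gstm6, chr3:107943735-107943884, reverse strand: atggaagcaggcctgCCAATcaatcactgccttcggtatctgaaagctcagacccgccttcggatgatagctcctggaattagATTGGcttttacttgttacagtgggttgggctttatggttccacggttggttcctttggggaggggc
Gsta3, chr1:21240435-21240584, forward strand: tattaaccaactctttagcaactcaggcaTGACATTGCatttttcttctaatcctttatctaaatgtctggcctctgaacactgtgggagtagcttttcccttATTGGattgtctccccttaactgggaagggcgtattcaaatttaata
Pmvk, chr3:89454391-89454540, forward strand: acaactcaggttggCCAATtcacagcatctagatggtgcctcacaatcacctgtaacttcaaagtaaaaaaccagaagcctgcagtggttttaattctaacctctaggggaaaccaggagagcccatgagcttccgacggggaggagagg
Ebp, chrX:8193513-8193662, reverse strand: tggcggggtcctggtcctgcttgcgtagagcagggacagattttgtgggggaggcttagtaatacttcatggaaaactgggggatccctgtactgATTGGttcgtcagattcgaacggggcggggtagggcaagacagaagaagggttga

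These sequences are from RefSeq on GRCm38.p6, and motifs were searched on both strands of the 250 bases before each start. A gene with several starts was counted if any of them had a match. Pmvk has 2 such starts and Gstm6 has 3, and the start shown is the one nearest the 5′ end of the gene in GENCODE. The CCAAT box was found for 10133 of 27025 genes with such a window (37.5%), for 13 of 23 glutathione S-transferases (56.5%) and for 16 of 17 cholesterol synthesis genes (94.1%). The antioxidant response core was found for 11.5% of all genes, and for 4 of the 23 glutathione S-transferases (17.4%), Gsta3 among them but neither Gstm2 nor Gstm6. It was also found for 3 of the 17 cholesterol synthesis genes (17.6%), Pmvk among them before a start other than the one shown, and for 6 of 17 NRF2 and antioxidant genes (35.3%). The sterol regulatory element, as the letters TCACNCCAC, was found for 1.22% of all genes and for 1 of the 17 cholesterol synthesis genes (5.88%) and 2 of the 23 glutathione S-transferases (8.7%), Gstm6 among them before a start other than the one shown. A match describes the letters of the window only.

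Gstm6 had 37.4, 40.1, 44.8, 38.0 and 28.2 CPM in the Sirt2-/- libraries and 86.4, 48.3, 103, 99.0 and 75.2 CPM in Sirt2-/-/CE. Every library of Sirt2-/-/CE lay above every library of Sirt2-/-, and replicate 17 was nearest to them. This gave a log2 fold change of 1.13 (standard error 0.22, edgeR unadjusted p = 6.06e-05, adjusted p = 0.473), with a DESeq2 adjusted p of 0.00909. It was 1.04 without the 4 libraries that stood apart. Gstm2 had 18, 17.3, 23.5, 19 and 24.9 CPM in Sirt2-/- and 76.8, 33.4, 60.6, 53.4 and 72.2 CPM in Sirt2-/-/CE, again without overlap. Its log2 fold change was 1.53 (standard error 0.35, edgeR adjusted p = 0.503; DESeq2 adjusted p = 0.0244), and 1.33 without the 4 libraries.

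Gstt1, the theta-class enzyme that acts on small halogenated compounds, had 114, 100, 112, 132 and 98.5 CPM in Sirt2-/- and 261, 153, 142, 153 and 303 CPM in Sirt2-/-/CE. The groups did not overlap, but replicates 16 and 20 had by far the highest levels, and the log2 fold change of 0.87 was 0.46 without the 4 libraries. Gsta3, the most abundant of the transferases named here with a mean of 982 FPKM in Sirt2-/- and 1380 FPKM in Sirt2-/-/CE, overlapped between the groups and had a log2 fold change of 0.58, or 0.14 without the 4 libraries. The transferase family was made a list after the values were seen, so its counts include the genes described above. Of 24 glutathione S-transferases in the table, 21 were tested, and 18 of these had a positive log2 fold change. At p under 0.05, 6 were higher and 0 lower (3.96% and 3.29% over all genes), and 3 did not overlap between the groups. Over all genes, 68 (0.435%) did not overlap with Sirt2-/-/CE above, and 48 (0.307%) with it below. The balance turned with the scaling, to 59 above and 86 below in FPKM, and to 58 and 78 when scaled by library size alone. Both directions together made 116 genes with TMM, 145 in FPKM and 136 by library size alone. A random order of the 10 libraries would give 0.794% of genes for both directions together, slightly more than with TMM. Across all genes, a lack of overlap was thus about as frequent as under a random order, and alone it does not mark a gene as different. The median log2 fold change of the family was 0.42, and 0.16 without the 4 libraries. Its mean, as log2 CPM centred on the 10 libraries, was 0.77 in replicate 16 and 0.47 in replicate 20, while replicates 17 to 19, at -0.11, -0.09 and -0.08, lay within the Sirt2-/- range of -0.47 to 0.06. Its median exon length of 1548 bases was short beside 4070 over all genes, and the part of gene length in its difference was not tested. Family members share sequence, and reads may be divided between them in a way the sources used here do not state. Of their 100-base stretches, 2.41% for Gstm6, 0.622% for Gstm2 and 0% for Gstt1 and Gsta3 occur in other annotated genes.

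**Figure D1:**
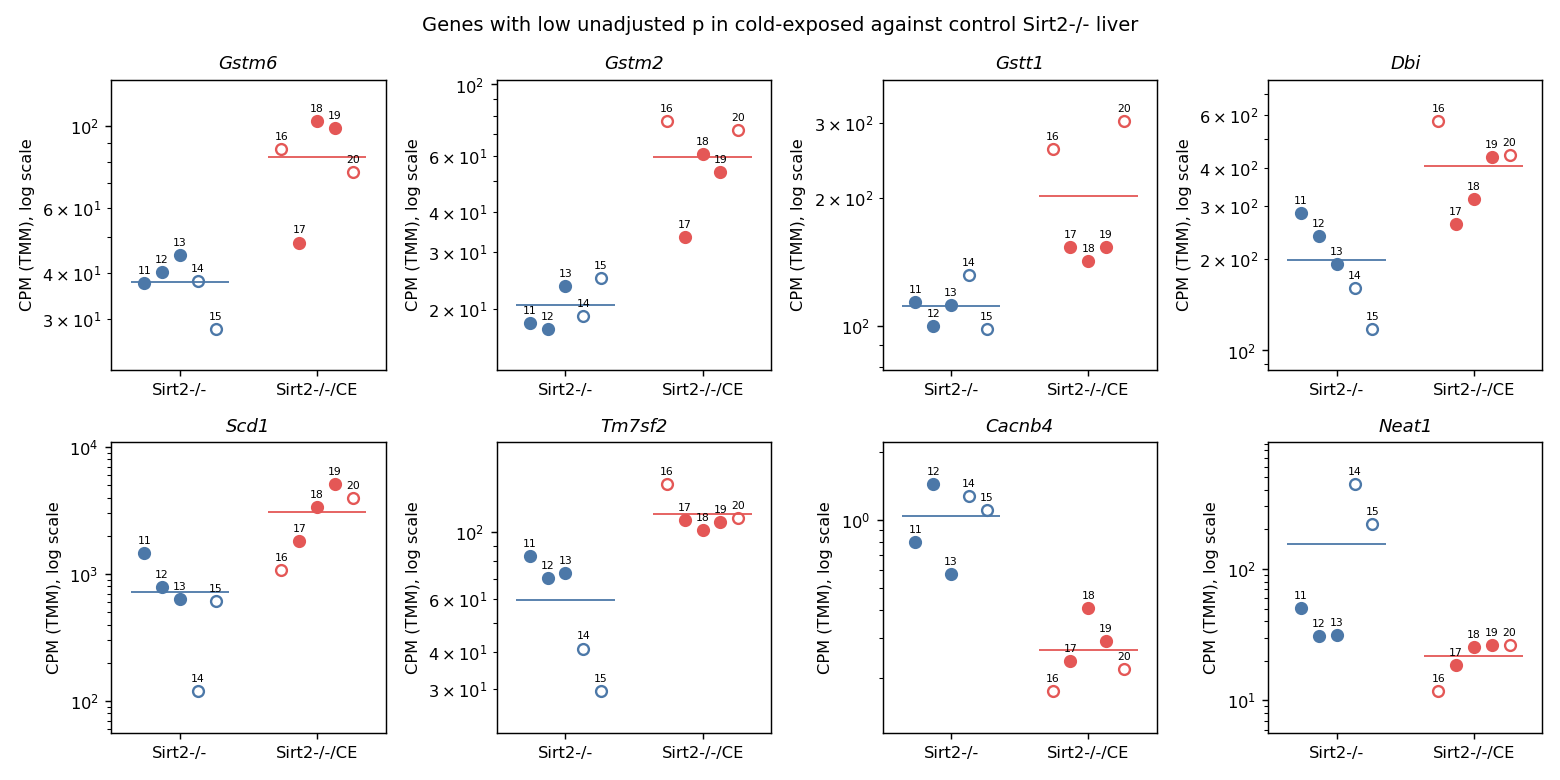
Level of 8 genes in each of the 10 libraries, in CPM scaled by TMM on a log axis, for Sirt2-/- (blue) and Sirt2-/-/CE (red). Points are libraries with their replicate number, open points are the 4 libraries that stood apart, and bars are group means: Gstm6 and Gstm2 do not overlap between groups, while the height of the Neat1 difference rests on replicates 14 and 15.

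Dbi, the acyl-CoA binding protein that carries fatty acids as CoA esters, had 284, 239, 193, 161 and 118 CPM in Sirt2-/- and 571, 261, 317, 434 and 443 CPM in Sirt2-/-/CE. Sirt2-/-/CE replicate 17 lay below Sirt2-/- replicate 11, and the other 9 libraries were separated by group. Its log2 fold change of 1.03 (standard error 0.22, edgeR adjusted p = 0.503) had a DESeq2 adjusted p of 0.0137 and was 0.50 without the 4 libraries. Among higher genes with a characterized symbol and a mean of at least 1 FPKM, the 10 with the smallest p also held Immp2l, a subunit of the mitochondrial inner membrane peptidase (log2 fold change 0.92), and Lect2, a protein secreted by hepatocytes (0.77). They further held Hyi, named for a hydroxypyruvate isomerase and annotated as a polymorphic pseudogene (0.88), Klk1b4, a kallikrein (1.20), Atp5k, a subunit of ATP synthase (0.69), and Nat8b, annotated as a processed pseudogene of the N-acetyltransferase family (0.88), which shares 16% of its 100-base stretches with other genes. Without the 4 libraries these log2 fold changes were 0.40, 0.25, 0.38, 0.73, 0.46 and 0.70.

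Several of these genes were low in Sirt2-/- relative to all other groups. Gstm6 had a mean of 83.1 ± 12.2 CPM (SD, n = 5) in Control and 74.7 ± 26.0 CPM in CE, against 37.7 ± 6.07 CPM in Sirt2-/- and 82.4 ± 22.0 CPM in Sirt2-/-/CE. Gstt1 had 208 ± 25.7 CPM in Control and 167 ± 31.2 CPM in CE, against 111 ± 13.4 and 203 ± 74.1 CPM in the knockout groups. Dbi had 400 ± 30.4 and 355 ± 60.4 CPM in the wild type, against 199 ± 64.7 and 405 ± 120 CPM in the knockout. For these 3 genes the mean of Sirt2-/-/CE thus lay near that of Control, and the mean of Sirt2-/- was the lowest of the 4 groups. They were named for a small p as higher in Sirt2-/-/CE than in Sirt2-/-, a choice that favours a low mean in Sirt2-/-.

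Genes of fatty acid and triglyceride synthesis stood higher in Sirt2-/-/CE than in Sirt2-/-. In Sirt2-/- they were low beside Control, with a median log2 fold change of -0.68 for Sirt2-/- against Control. Of the 22 tested, 21 had a positive log2 fold change, and 2 did not overlap, with Sirt2-/-/CE above (0.435% of all genes). At p under 0.05, 8 were higher and 0 lower, against 3.96% and 3.29% of all genes. The median of the list was 0.57, against 0.006 over all genes. It was 0.32 without the 4 libraries, where 4 were higher at p under 0.05. Scd1, the desaturase that makes monounsaturated fatty acids, had 1470, 795, 637, 119 and 618 CPM in Sirt2-/- and 1080, 1830, 3340, 5120 and 3960 CPM in Sirt2-/-/CE. The lowest value was in replicate 14 and the highest in replicate 19, and the groups overlapped through Sirt2-/- replicate 11 and Sirt2-/-/CE replicate 16. This gave a log2 fold change of 2.08 (95% interval 0.91 to 3.24, edgeR adjusted p = 0.503), 1.83 without the 4 libraries, and between 1.80 and 2.50 when each library was left out in turn. Mean Scd1 was 5780 ± 2940 CPM (SD, n = 5) in Control, 727 ± 486 CPM in Sirt2-/- and 3070 ± 1630 CPM in Sirt2-/-/CE.

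Slc25a1, which exports citrate from mitochondria for fatty acid synthesis, had 92.0 to 147 CPM in Sirt2-/- and 152 to 231 CPM in Sirt2-/-/CE, without overlap, and its log2 fold change was 0.47, or 0.19 without the 4 libraries. Me1, the malic enzyme that supplies NADPH, had 106, 100, 121, 127 and 87.9 CPM in Sirt2-/- and 141, 158, 158, 164 and 215 CPM in Sirt2-/-/CE. Its groups did not overlap, and its log2 fold change was 0.62, or 0.55 without the 4 libraries. Acss2, which activates acetate to acetyl-CoA, had a log2 fold change of 0.90, or 0.51 without the 4 libraries, and overlapped between the groups. Thrsp, a lipogenic protein induced by thyroid hormone and carbohydrate, varied widely, from 28.1 to 334 CPM in Sirt2-/- and from 96.9 to 2120 CPM in Sirt2-/-/CE. Its log2 fold change of 2.27 was 0.45 without the 4 libraries. Among the 11 thyroid hormone targets tested, Thrsp and Me1 were the 2 higher at p under 0.05, and the median was 0.05.

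All 25 cholesterol synthesis genes had a positive log2 fold change, with a median of 0.56. At p under 0.05, 7 were higher and 0 lower, against 3.96% and 3.29% of all genes. The groups did not overlap for 2, with Sirt2-/-/CE above (0.435% of all genes). Without the 4 libraries the median was 0.14, with 1 gene under 0.05. For Sirt2-/- against Control the median of this list was -0.89. Tm7sf2, a sterol reductase, had 83.3, 70.5, 73.3, 41.0 and 29.5 CPM in Sirt2-/- and 145, 110, 102, 108 and 112 CPM in Sirt2-/-/CE. The groups did not overlap, the lowest levels were those of replicates 14 and 15, and the log2 fold change was 0.95, or 0.49 without the 4 libraries. Pmvk, the phosphomevalonate kinase, had 28.5, 17.6, 9.95, 13 and 9.32 CPM in Sirt2-/- and 50.1, 35.3, 15.6, 24.1 and 55.9 CPM in Sirt2-/-/CE, with overlap and a log2 fold change of 1.21, or 0.42 without the 4 libraries. Acat2, the cytosolic thiolase, did not overlap between the groups (52.6 to 72.6 and 74.3 to 106 CPM), with a log2 fold change of 0.46, or 0.25 without the 4 libraries. It shares 35.3% of its 100-base stretches with Acat3, so its reads may be shared. Ebp, the sterol isomerase, had a log2 fold change of 0.51, or 0.17 without the 4 libraries, and overlapped.

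The level of the cholesterol genes varied widely within Sirt2-/-. Their mean, as log2 CPM centred on the 10 libraries, was 0.61, 0.41, -0.47, -1.70 and -1.05 in replicates 11 to 15. It was 0.34, 0.80, -0.03, 0.32 and 0.78 in replicates 16 to 20. Replicates 14 and 15 were the lowest of the 10. For fatty acid synthesis the means were 0.21, 0.04, -0.55, -0.95 and -0.57 in Sirt2-/- and 0.02, 0.55, 0.04, 0.12 and 1.09 in Sirt2-/-/CE, so that replicates 11 and 12 overlapped with the cold-exposed libraries.

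**Figure D2:**
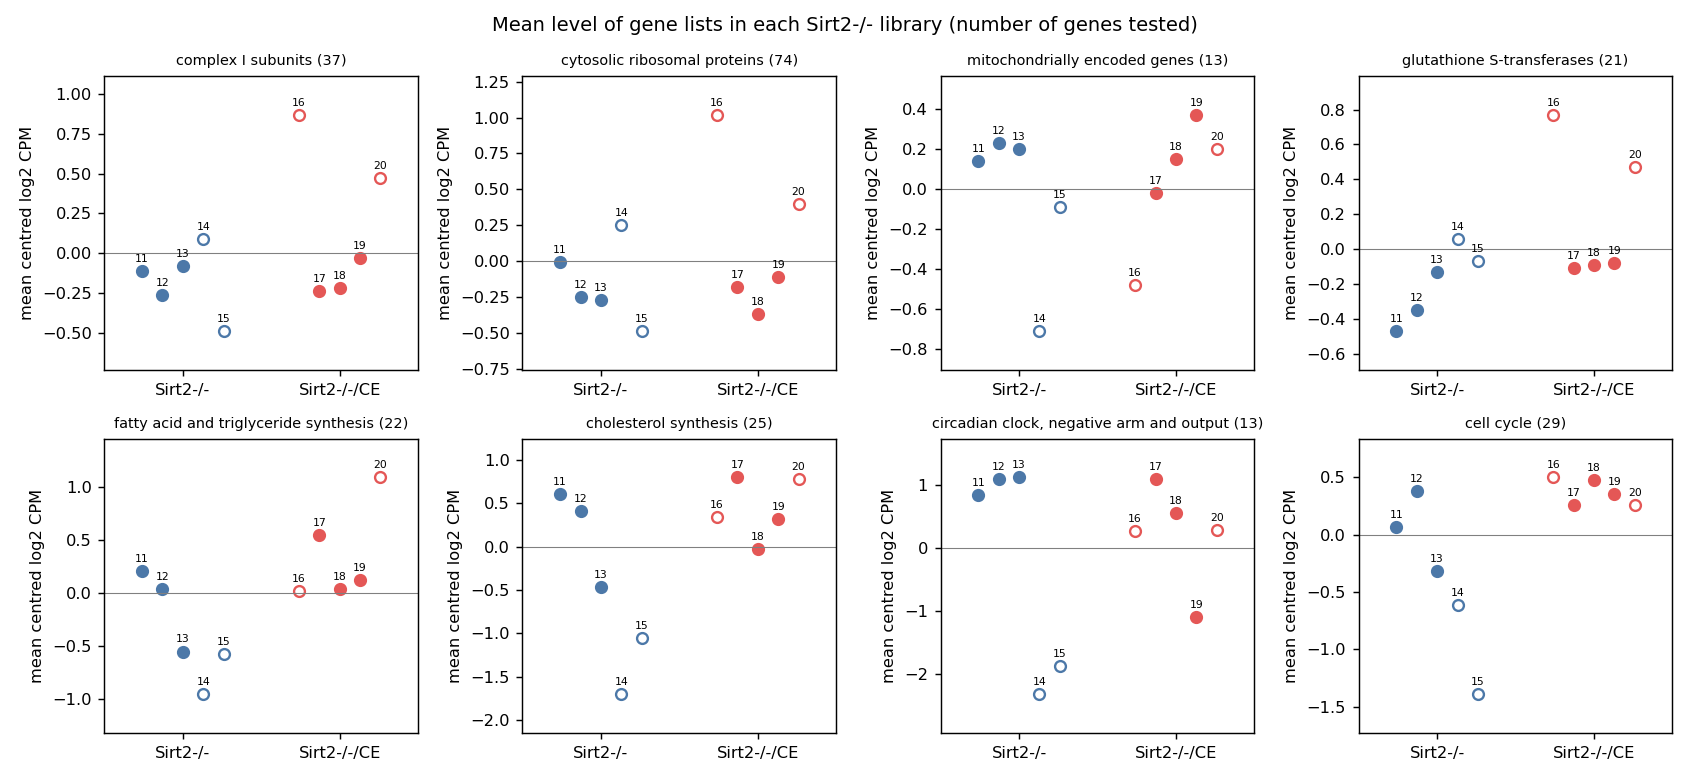
Mean of log2 CPM over the genes of 8 lists, each gene centred on the 10 libraries, for Sirt2-/- (blue) and Sirt2-/-/CE (red). Points are libraries with their replicate number and open points are the 4 that stood apart: complex I and ribosomal protein genes are highest in replicates 16 and 20, and clock output genes are lowest in replicates 14 and 15.

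Nuclear-encoded genes of oxidative phosphorylation, the respiratory chain and ATP synthase, were higher on average in Sirt2-/-/CE, and this rested on libraries that stood apart. Of 37 complex I subunits, 37 had a positive log2 fold change and 20 were higher at p under 0.05 (median 0.42). Of 38 subunits of complexes II to V, 38 were positive and 25 were higher at p under 0.05 (median 0.46). Without the 4 libraries the medians were -0.01 and 0.03, with 0 and 1 genes under 0.05. The mean of complex I genes was 0.87 in replicate 16 and 0.47 in replicate 20, and -0.24, -0.22 and -0.03 in the other 3 libraries of Sirt2-/-/CE. In Sirt2-/- it was -0.11, -0.26, -0.08, 0.09 and -0.49, so replicates 17 to 19 lay within the range of Sirt2-/-.

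Ndufv3, a small subunit of complex I, had 30.1, 24.4, 31.1, 28.8 and 19 CPM in Sirt2-/- and 57.0, 27.1, 31.7, 42.2 and 45.9 CPM in Sirt2-/-/CE. Its log2 fold change was 0.61, or 0.24 without the 4 libraries. Atp5k had 7.41 to 9.27 CPM in Sirt2-/- and 8.29 to 18.9 CPM in Sirt2-/-/CE and kept a log2 fold change of 0.46 without the 4 libraries. For Ndufc2, Cox7b, Uqcr11 and Atp5e the log2 fold changes were 0.67, 0.58, 0.73 and 0.69, and 0.01, 0.07, 0.12 and 0.25 without the 4 libraries. The subunits that the study followed as proteins were Atp5a1, Uqcrc2, Sdhb and Ndufb8, with log2 fold changes of 0.32, 0.19, 0.37 and 0.48. Without the 4 libraries they were 0.05, -0.04, 0.00 and 0.03.

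Ribosomal protein genes followed the same libraries. All 74 cytosolic ribosomal protein genes had a positive log2 fold change, 19 of them at p under 0.05, with a median of 0.37 and of -0.06 without the 4 libraries. Their mean was 1.02 in replicate 16 and 0.40 in replicate 20, and 0.25 in Sirt2-/- replicate 14. Rps12, of the small subunit, had 21.8 to 40.2 CPM in Sirt2-/- and 85.8, 38.8, 28.9, 48.1 and 66.6 CPM in Sirt2-/-/CE (log2 fold change 0.77, or 0.30 without the 4 libraries). Rps2, Rpl31 and Rpl15 had log2 fold changes of 0.56, 0.63 and 0.42, and 0.11, 0.05 and 0.09 without the 4 libraries. Many ribosomal protein genes have near-identical pseudogenes, and for Rps2 58.5% of the 100-base stretches occur in other annotated genes. Of 37 mitochondrial ribosomal protein genes, 6 were higher at p under 0.05, Mrpl23 (0.73) and Mrpl13 (0.51) among them, and 1 was lower, Mrps2 (-0.37). These 3 had 0.11, 0.10 and -0.19 without the 4 libraries. The median of 0.16 became -0.05, with 0 higher and 1 lower at p under 0.05.

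Median exon length in these lists, too, was below that of all genes. It was 1569 bases for complex I, 1869 for complexes II to V and 1835 for cytosolic ribosomal proteins, against 4070 over all genes with a length. Among the quartile of genes with the fewest exon bases, up to 2382, 298 were higher and 74 lower at p under 0.05, with a median log2 fold change of 0.12. Among the longest quartile, 50 were higher and 132 lower, with a median of -0.04. Without the 4 libraries these medians were -0.02 and 0.04. The part of gene length in the differences of these lists was not tested.

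The 13 mitochondrially encoded genes did not follow the nuclear subunits. Their median was 0.08, with 1 gene higher at p under 0.05, mt-Nd3 of complex I (0.40, or -0.01 without the 4 libraries). Replicates 14 and 16, 1 from each group, had the lowest means, -0.71 and -0.48. mt-Co1, of cytochrome c oxidase, had 18600 CPM in replicate 14 and 25800 to 27300 CPM in the other 4 Sirt2-/- libraries. Both mt-Nd3 and mt-Co1 share sequence with other annotated genes.

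Among glycolysis enzymes, 17 of 23 had a positive log2 fold change and 3 were higher at p under 0.05, with a median of 0.25, or 0.03 without the 4 libraries. Ldhb, a lactate dehydrogenase subunit, had 1.04 to 2 CPM in Sirt2-/- and 4.37, 2.32, 2.33, 1.83 and 6.14 CPM in Sirt2-/-/CE (log2 fold change 1.05, or 0.48 without the 4 libraries). Aldoc, an aldolase, had a log2 fold change of 1.10, or 0.26 without the 4 libraries. Pkm, the pyruvate kinase gene on which the study centres, had 18.2, 14.9, 15.7, 26.8 and 18 CPM in Sirt2-/- and 42.0, 17, 19.6, 17.9 and 28.9 CPM in Sirt2-/-/CE. The groups overlapped, and its log2 fold change was 0.42 (95% interval -0.92 to 1.76), or 0.16 without the 4 libraries. Its isoforms were counted together.

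Of 25 genes of the TCA cycle and pyruvate dehydrogenase, 3 were higher at p under 0.05, with a median of 0.17, or -0.08 without the 4 libraries. They were Pdk1, a kinase that inactivates pyruvate dehydrogenase (0.56), Mdh1, the cytosolic malate dehydrogenase (0.33), and Idh3b of isocitrate dehydrogenase (0.25), with 0.16, 0.18 and 0.01 without the 4 libraries. Gluconeogenesis and fasting response genes had a median of -0.04, with 0 higher and 1 lower at p under 0.05, and a median of -0.37 without the 4 libraries. G6pc, glucose-6-phosphatase, had 294, 298, 285, 67.1 and 66.5 CPM in Sirt2-/- and 461, 360, 173, 538 and 208 CPM in Sirt2-/-/CE. It was low in replicates 14 and 15, and its log2 fold change of 0.78 was 0.29 without the 4 libraries. Pdk4 had a log2 fold change of 0.75 (standard error 0.44), or 1.14 without the 4 libraries.

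Fatty acid oxidation and ketogenesis genes had a median of 0.03, with 0 higher and 2 lower at p under 0.05, and 17 of 32 had a positive log2 fold change. Leaving out the 4 libraries gave a median of -0.21, with 0 of 32 positive and 2 lower at p under 0.05. Cyp4a14, a fatty acid omega-hydroxylase and target of PPARα, had 1370, 1700, 1290, 3120 and 2230 CPM in Sirt2-/- and 1340, 732, 432, 939 and 598 CPM in Sirt2-/-/CE. This gave a log2 fold change of -1.26 (95% interval -2.26 to -0.26), and -1.05 without the 4 libraries. In the wild type its mean was 247 ± 137 CPM (SD, n = 5) in Control and 323 ± 188 CPM in CE, below both knockout groups. Cyp4a10, a further target of PPARα, had a log2 fold change of -0.60 (standard error 0.36), or -0.86 without the 4 libraries.

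Of 35 genes of xenobiotic metabolism, 8 were higher at p under 0.05 and 0 lower, against 3.96% and 3.29% of all genes. The list had a median of 0.17, or 0.14 without the 4 libraries, where 3 were higher at p under 0.05. Besides Gstm2, Ces2a, a carboxylesterase, had 273, 256, 221, 183 and 217 CPM in Sirt2-/- and 327, 302, 342, 379 and 324 CPM in Sirt2-/-/CE, without overlap. Its log2 fold change was 0.54, or 0.45 without the 4 libraries. The P450 genes Cyp2c54 and Cyp2c50 had log2 fold changes of 0.65 and 0.49, and 0.22 and 0.18 without the 4 libraries. Antioxidant enzymes under NRF2 were divided, with 1 higher and 3 lower at p under 0.05 of 20 tested. The 3 lower ones were Srxn1 (-0.65), which repairs oxidized peroxiredoxins, Txnrd1 (-0.30), the thioredoxin reductase, and Gclm (-0.30), of glutathione synthesis. These log2 fold changes became -0.15, -0.06 and -0.17 without the 4 libraries.

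**Figure D3:**
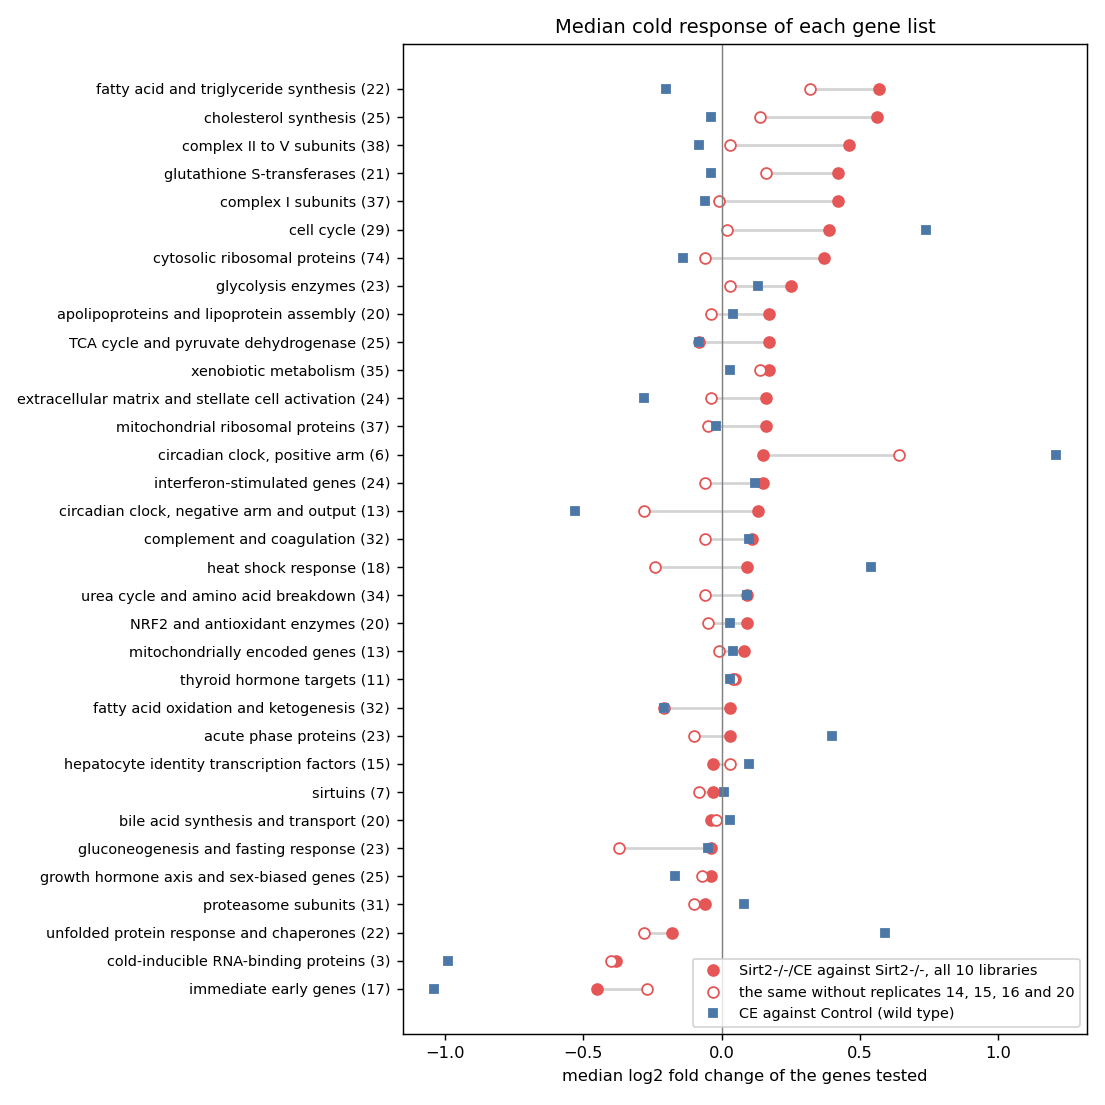
Median log2 fold change of the genes tested in each of 33 lists, with the number tested in parentheses, for Sirt2-/-/CE against Sirt2-/- with all 10 libraries (filled circles) and without replicates 14, 15, 16 and 20 (open circles), and for CE against Control (squares). The medians of complex I, complexes II to V and cytosolic ribosomal proteins are 0.42, 0.46 and 0.37 with all libraries and -0.01, 0.03 and -0.06 without the 4.

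Cacnb4 and Neat1 had the smallest p of the genes lower in Sirt2-/-/CE. Cacnb4, a calcium channel subunit best known from brain, had 0.795, 1.44, 0.574, 1.27 and 1.10 CPM in Sirt2-/- and 0.174, 0.237, 0.408, 0.290 and 0.218 CPM in Sirt2-/-/CE. The groups did not overlap, and the log2 fold change was -1.95 (edgeR adjusted p = 0.473, DESeq2 adjusted p = 0.00909), or -1.57 without the 4 libraries. Its mean levels were low, at 0.127 and 0.030 FPKM, and 1433 of its exon bases overlap A430018G15Rik on the opposite strand. Since the strandedness of the counts is not given in the sources used here, reads of the 2 genes may not be told apart.

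Neat1, the long noncoding RNA that scaffolds nuclear paraspeckles, had 50.4, 31.0, 31.7, 444 and 221 CPM in Sirt2-/- and 11.7, 18.6, 25.3, 26.5 and 26.5 CPM in Sirt2-/-/CE. Replicates 14 and 15 were far above all other libraries. Its log2 fold change of -2.84 (DESeq2 adjusted p = 0.0137) was -0.68 without the 4 libraries, and the remaining 6 libraries still did not overlap. Crebzf, a transcription factor of the ATF family (-0.87), Fubp1, a DNA- and RNA-binding protein (-1.17), Armcx3 of the outer mitochondrial membrane (-1.09) and Gabpb1, a subunit of the GABP transcription factor (-0.73), were each highest in replicate 15, as were Kcnn1, Glt8d1, Bcap29 and Tle3. The log2 fold changes of Crebzf, Fubp1, Armcx3 and Gabpb1 became -0.42, -0.31, -0.39 and -0.31 without the 4 libraries. Kcnn1, a potassium channel (-0.84), Glt8d1, a glycosyltransferase (-0.80), Parp3, an ADP-ribosyltransferase (-0.55), Bcap29 of the endoplasmic reticulum (-0.73) and Tle3, a transcriptional corepressor (-0.80), had log2 fold changes of -0.79, -0.53, -0.41, -0.42 and -0.45 without them. For Tle3 the value in the wild type, CE against Control, was -0.77.

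The remaining 2 genes called by DESeq2 were uncharacterized. 3830406C13Rik had 10.5, 9.69, 12.1, 11.5 and 15.1 CPM in Sirt2-/- and 7.25, 6.74, 8.37, 8.06 and 8.02 CPM in Sirt2-/-/CE (log2 fold change -0.62, or -0.48 without the 4 libraries, DESeq2 adjusted p = 0.0391). Gm27029 had 0 to 0.225 CPM in Sirt2-/- and 3.50, 0.796, 1.06, 0.772 and 1.04 CPM in Sirt2-/-/CE, with a fitted log2 fold change of 3.60. It shares 79.1% of its 100-base stretches with other genes, chiefly Aarsd1, which it overlaps on the same strand, so its counts are uncertain.

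Clock genes separated libraries within the groups. Dbp, an output gene of the circadian clock, had 37.9, 45.5, 66.8, 0.325 and 0.359 CPM in Sirt2-/- and 13, 21.8, 48.1, 2.46 and 15.1 CPM in Sirt2-/-/CE. Replicates 14 and 15 were thus far below replicates 11 to 13 of the same group, and replicate 19 was the lowest of Sirt2-/-/CE. The 13 genes of the negative arm and output had means of 0.84, 1.09, 1.12, -2.31 and -1.86 in replicates 11 to 15 and 0.27, 1.09, 0.55, -1.09 and 0.29 in replicates 16 to 20. Their median log2 fold change was 0.13, with 0 at p under 0.05, and -0.28 without the 4 libraries. In the list of the positive arm, Cry1, itself a repressor of the clock, was higher at p under 0.05 (0.99) and Clock had 0.22. Leaving out the 4 libraries gave 0.41 for Cry1 and 0.87 for Clock, and moved the median of this list from 0.15 to 0.64, with 2 of 6 genes higher at p under 0.05. Replicates 14 and 15 were also those with low cholesterol synthesis genes, low G6pc and high Neat1. The part of clock phase in these differences was not tested, and times of collection for single mice are not given in the labels.

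Some genes of the list for growth hormone and sex-biased expression in liver set replicate 20 apart. Cyp2b9, Cyp2a4 and Cyp2a22 are cytochromes P450, the first 2 of them typical of female mouse liver. In replicate 20 Cyp2b9 had 205 CPM, Cyp2a4 827 CPM and Cyp2a22 111 CPM, where the other 9 libraries had at most 56.4, 131 and 15.4 CPM. Their log2 fold changes of 3.14, 2.16 and 2.32 were 0.99, -0.53 and -0.36 without the 4 libraries. Mup20, a male-typical major urinary protein, had 262 CPM in replicate 20 and 1940 to 7680 CPM elsewhere. Mup20 was chosen after its values were seen. Control replicate 3 resembled replicate 20, with 120 CPM of Cyp2b9, 334 CPM of Cyp2a4 and 633 CPM of Mup20, where the other 4 Control libraries had at most 27.5 and 47.8 CPM of the P450 genes and at least 1850 CPM of Mup20. Replicate 20 carried Ddx3y at 34.5 CPM of its total counts and Xist at 0.0469 CPM. Of the 25 genes of this list tested, 5 were higher at p under 0.05 and 0 lower, with a median of -0.04. The mean of the list was 0.28 in replicate 20 and 0.24 in replicate 14, so the whole list did not set replicate 20 apart.

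**Figure D4:**
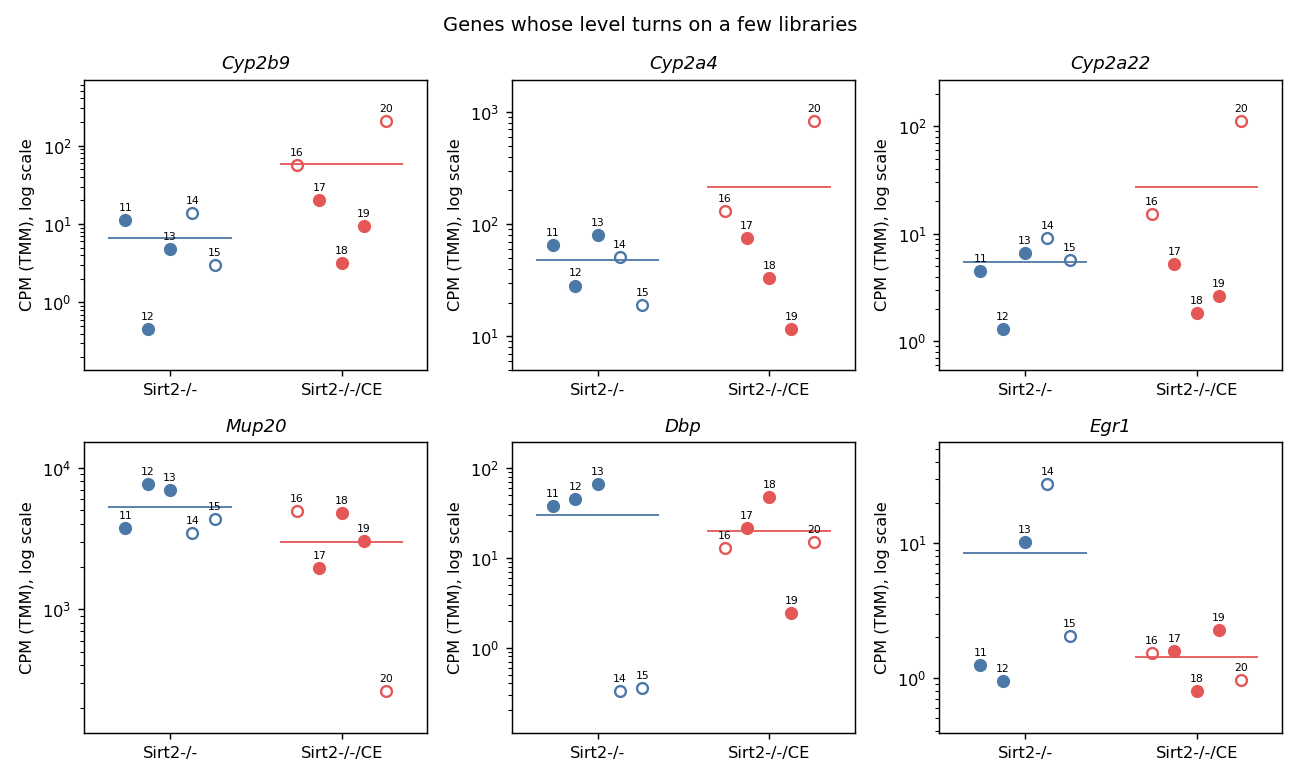
Level of 6 genes in each library, in CPM scaled by TMM on a log axis, for Sirt2-/- (blue) and Sirt2-/-/CE (red), with replicate numbers, group means as bars and open points for the 4 libraries that stood apart. Cyp2b9, Cyp2a4 and Cyp2a22 are high and Mup20 is low in replicate 20, and Dbp is lowest in replicates 14 and 15.

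Immediate early genes, which respond within minutes to signals or handling, had a median of -0.45, with 14 of 17 lower by estimate and 2 at p under 0.05. Egr1 had 1.25, 0.949, 10.3, 27.7 and 2.03 CPM in Sirt2-/- and 0.792 to 2.27 CPM in Sirt2-/-/CE, so replicates 13 and 14 stood far above the rest. This gave a log2 fold change of -2.56, or -1.42 without the 4 libraries. Fos (-2.05, or -2.71 without the 4 libraries) was highest in replicate 13, at 6.51 CPM. Of the cold-inducible RNA-binding proteins, which rise with mild hypothermia in cultured cells, none was higher. Cirbp had 6.99, 4.08, 13, 12.7 and 7.41 CPM in Sirt2-/- and 3.13, 4.35, 4.99, 8.91 and 5.80 CPM in Sirt2-/-/CE (log2 fold change -0.70, unadjusted p = 0.0492 by edgeR). Rbm3 had -0.01 and Srsf5 -0.38. For Cirbp, Rbm3 and Srsf5 the values without the 4 libraries were -0.40, -0.44 and -0.13.

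Chaperones and the unfolded protein response had a median of -0.18, with 16 of 22 lower by estimate and 0 at p under 0.05. Hsp90b1, Pdia4 and Calr of the endoplasmic reticulum had -0.36, -0.29 and -0.24, or -0.57, -0.31 and -0.30 without the 4 libraries. Heat shock genes had a median of 0.09 with 0 of 18 at p under 0.05, and of -0.24 without the 4 libraries. Proteasome subunits had a median of -0.06. Psmc6, an ATPase of the regulatory particle, did not overlap between the groups, with 68.7 to 81.5 CPM in Sirt2-/- and 59.2 to 65.2 CPM in Sirt2-/-/CE, and its log2 fold change was -0.30, or -0.24 without the 4 libraries. Psmd1 had -0.25, or -0.08 without them.

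Of 24 interferon-stimulated genes, 3 were higher at p under 0.05, namely Bst2 (0.63), Oas1a (0.88) and Ifi27l2a (1.21), and their log2 fold changes without the 4 libraries were 0.16, 0.14 and 0.14. Acute phase proteins had a median of 0.03, and 2 of 23 were higher at p under 0.05, Orm1 (0.59) and Orm3 (1.79), with 0.24 and 0.69 without the 4 libraries. Cell cycle genes had a median of 0.39 and 1 gene of 29 at p under 0.05, Plk1, a mitotic kinase found at or below 0.695 CPM. Their mean was lowest in Sirt2-/- replicates 14 and 15, at -0.61 and -1.39, and without the 4 libraries the median was 0.02.

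The remaining lists held few genes at p under 0.05, where 3.96% of all genes were higher and 3.29% lower, so counts of 1 or 2 genes in a list lie near that background. Apolipoprotein and lipoprotein assembly genes had a median of 0.17 and 3 genes higher at p under 0.05, with Lipc, the hepatic lipase (0.41), and Pltp, the phospholipid transfer protein (0.97), among them. These 2 had 0.21 and 0.58 without the 4 libraries, where the median of the list was -0.04. For the urea cycle and amino acid breakdown the median was 0.09, with 2 of 34 higher at p under 0.05, Bckdhb (0.49) and Glud1 (0.24), or 0.10 and 0.18 without the 4 libraries. Complement and coagulation genes had a median of 0.11, with 2 of 32 higher at p under 0.05, F10 (0.45) and C8g (0.37), or 0.07 and 0.17 without the 4 libraries. In bile acid synthesis and transport 0 of 20 passed p under 0.05, and Akr1d1 and Slco1a4 had log2 fold changes of 0.53 and 0.69, or 0.18 and 0.52 without the 4 libraries. Among extracellular matrix genes Tagln was the 1 higher at p under 0.05 (0.68, or 0.37 without the 4 libraries) of 24 tested. Medians were -0.03 for hepatocyte transcription factors and for the 7 sirtuins, with 0 at p under 0.05 in both lists, and Sirt6 and Sirt7 had -0.43 and 0.23, or -0.19 and 0.18 without the 4 libraries.

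CE against Control measures cold exposure in the wild type, in libraries other than the 10 compared here, although all 20 share 1 estimate of the spread in the fit. The same fit called 1 gene in the wild type, the uncharacterized 3110082I17Rik (log2 fold change -1.76, edgeR adjusted p = 0.0191), and 1674 genes had an unadjusted p under 0.05, beside 0 and 1132 in the knockout. Between the log2 fold changes of the 2 genotypes, Pearson's r over all 15616 genes was 0.01. Over the 3943 genes with at least 10 FPKM it was -0.26, a description across genes, which are not independent replicates. At an unadjusted p under 0.05 in both genotypes there were 150 genes, 90 of them in the same direction. The test of the difference itself, the interaction of genotype and cold exposure, called 0 genes by edgeR (0.0%), with a lowest adjusted p of 0.208, while 1303 genes (8.34%) had an unadjusted p under 0.05. DESeq2 called 41 in this test, 32 with the higher response in the knockout, and Gstm6, Gstt1, Immp2l, Ldhb and Scd1 were among them, as were the 5 genes described next.

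Under the same filter on symbol and FPKM, the 5 genes with the smallest p for the difference were Hyi, Acnat2, Pdk1, Ces1e and Soat2. Hyi had a log2 fold change of 0.88 in the knockout and -0.75 in the wild type, a difference of 1.63 (standard error 0.31, edgeR adjusted p = 0.208, DESeq2 adjusted p = 0.00381). Pdk1 had 0.56 and -1.09, Ces1e, a carboxylesterase, 0.83 and -0.95, and Soat2, which esterifies cholesterol, 0.67 and -1.05. The DESeq2 adjusted p was 0.00527 for Pdk1 and Ces1e, 0.00706 for Soat2 and 0.00023 for Acnat2. The knockout values of Hyi, Pdk1, Ces1e and Soat2 were 0.38, 0.16, 0.39 and 0.36 without the 4 libraries. Acnat2, an acyltransferase of peroxisomes, went the other way, with -1.15 in the knockout and 2.49 in the wild type. Its levels in Sirt2-/- were 16.5, 17.1, 24.7, 99.9 and 107 CPM, so the value in the knockout rested on replicates 14 and 15 and was -0.01 without the 4 libraries. For Scd1 the difference between the genotypes was 2.88 (standard error 0.77, edgeR adjusted p = 0.342).

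By list, medians in the wild type were -0.20 for fatty acid and triglyceride synthesis, -0.04 for cholesterol synthesis and -0.04 for the glutathione S-transferases, beside 0.57, 0.56 and 0.42 in the knockout. For complex I, complexes II to V and cytosolic ribosomal proteins they were -0.06, -0.08 and -0.14, beside 0.42, 0.46 and 0.37. The unfolded protein response had 0.59 in the wild type and -0.18 in the knockout, with 10 of 22 genes at an unadjusted p under 0.05 for the difference and 0 after adjustment. Over all genes 8.34% were under 0.05 for the difference. Such genes were 18 of 38 in complexes II to V, 10 of 37 in complex I and 17 of 74 among cytosolic ribosomal proteins. They were 10 of 22 in fatty acid synthesis, 9 of 21 among the transferases and 4 of 25 in cholesterol synthesis, also with 0 after adjustment. The wild-type median was -1.04 for immediate early genes and -0.99 for cold-inducible RNA-binding proteins, of the same sign as in the knockout.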

How the data were processed

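Liver RNA was sequenced from 20 mice, enriched for messenger RNA on oligo(dT) beads and primed with random hexamers, per the labels. The authors deposited raw read counts per gene and FPKM values, which scale fragments to gene length and depth. The labels name mm10 as the genome build. The aligner, counter and strandedness are not given in the sources used here. The table held 45306 genes, and 9 further lines with no gene identifier were left out. Counts were normalised by TMM and fitted in edgeR 4.0.16 (R 4.3.3) with its quasi-likelihood test, all 4 groups and 20 libraries sharing 1 estimate of the spread, and p-values were adjusted by the Benjamini-Hochberg method. Low genes were removed by edgeR's filter (minimum count 10, total over all libraries at least 15). CPM values are TMM-scaled unless said to be of total counts, or sums over markers, which were scaled to total counts. P-values measure the spread between libraries labelled as separate samples. No pair of the 10 knockout libraries was alike within sampling noise. Depth was 36004846 to 44030198 counts per knockout library.

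Alternatives were DESeq2 1.42.0, limma 3.58.1 (voom with quality weights), other scalings and filters, a fit of only the groups compared, and leaving out each library. Per direction, the 10 genes with the smallest p, a mean of at least 1 FPKM and a characterized symbol were named, with every gene called by edgeR or DESeq2, the 5 with the smallest p for the interaction, Sirt2, Pkm and 4 blotted subunits. Of up to 4 members with the smallest p per list, most are given. The lists, tests and named rules were chosen with earlier results of these data known, and the glutathione S-transferase family was added after the values were seen. Positions and exon lengths are from GENCODE vM21 on GRCm38, the same build as mm10, and held 14838 of the 14941 tested Ensembl genes. Exon overlaps with other genes, and 100-base stretches shared with other annotated transcripts, were searched for the named genes. Values of some members of the lists are not reported here.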

Additional observations from a re-analysis of the deposited data

Results flagged for a closer look

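Within each group of 5, the highest or lowest library was compared with the nearest other one, and the libraries given here lay far from the rest of their group by Dixon's test. Of 286 groups of values tested, 16 were marked, and chance marks about 1 in 20 groups. In Sirt2-/- replicate 14, Klk1b4 had 0.55 CPM (others 1.28 to 1.52), mt-Co1 18600 CPM (others 25800 to 27300) and Ddx3y 29.7 CPM (others 57.4 to 71.3). The same library had a mitochondrial share of 5.52% (others 8.28 to 9.12%) and a difference between short and long genes of 0.51 (others -0.27 to -0.14). Its mean centred log2 CPM was 0.28 for mitochondrial ribosomal proteins (others -0.22 to -0.11) and 0.45 for proteasome subunits (others -0.09 to -0.01). In Sirt2-/-/CE replicate 16, Sirt2 had 27.5 CPM (others 19 to 21.1), Gm27029 3.50 CPM (others 0.772 to 1.06), Slc25a1 231 CPM (others 152 to 168) and Tm7sf2 145 CPM (others 102 to 112). Proteasome subunits had a mean of 0.47 there (others -0.27 to -0.09). Slco1a4, an organic anion transporter, had 96.5 CPM in Sirt2-/- replicate 15 (others 33.4 to 45.2) and 186 CPM in Sirt2-/-/CE replicate 20 (others 52.0 to 62.4). Uqcrc2 had 238 CPM in Sirt2-/- replicate 13 (others 193 to 200). Total counts were about 42100000 in Sirt2-/- replicate 11 (others 36000000 to 37700000).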

How the results depend on the processing

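No paired analysis was possible because the replicate numbers run from 1 to 20 and no number is shared between groups. DESeq2 called 7 genes between Sirt2-/-/CE and Sirt2-/- where edgeR called 0, and 41 for the difference in cold response between the genotypes. With single libraries left out, edgeR called 0 between the groups and 0 to 2 for that difference, the 2 being Soat2 and Acnat2 without Control replicate 4. The 1132 genes at an unadjusted p under 0.05 became 1761 with no filter on low counts, 693 with only the groups compared in the fit, 415 without the 4 libraries that stood apart, and 606 (without Sirt2-/- replicate 15) to 1421 (without Sirt2-/- replicate 11) with single libraries left out. Without the 4 libraries the medians were 0.03 for glycolysis, -0.08 for the TCA cycle, -0.01 for complex I, 0.03 for complexes II to V and -0.04 for apolipoproteins. The median of hepatocyte transcription factors ran from -0.08 to 0.25 with single libraries left out, the highest without Sirt2-/- replicate 14. The other 27 of 33 list medians moved by less than 1 SD of the libraries' means under the alternatives run. That SD included the 4 libraries that stood apart, so it is a wide measure. Among the 27, the median of cytosolic ribosomal proteins (SD 0.45) went from 0.37 to -0.06 without the 4 libraries. That of cholesterol synthesis (SD 0.73) went from 0.56 to 0.14. Sirt2 was lower by the same log2 fold change of -1.11 in Sirt2-/-/CE against CE with only the groups compared, but no longer passed the threshold. Of 106 named genes, 100 kept their direction under every alternative run. Most had been chosen for a small p in these same libraries, which favours that outcome. Direction changed for Sirt2 (-0.13 to 0.07) and Rbm3 (-0.17 to 0.15) with single libraries left out. Without the 4 libraries it changed for Cyp2a22 (-0.36), Cyp2a4 (-0.53), mt-Nd3 (-0.01) and Uqcrc2 (-0.04). The cause of these changes was not tested.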
